A study of Mus musculus with 18 samples.

Results

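The genes of oxidative phosphorylation were described as a set of 109 protein-coding genes among the 54532 genes of the deposited count table. They were chosen by symbol: every protein-coding gene that starts with Ndufa, Ndufb, Ndufc, Ndufs, Ndufv, Uqcr, Cox4i, Cox5, Cox6, Cox7, Cox8 or Atp5, the genes Sdha, Sdhb, Sdhc, Sdhd, Cyc1 and Cycs, and the protein-coding genes of the mitochondrial genome. The 96 nuclear genes held 36 subunits and 8 assembly factors of complex I, 4 subunits of complex II, 9 of complex III, 20 of complex IV, 18 of complex V, and cytochrome c. The other 13 genes were the mitochondrially encoded subunits. A further 13 genes had one of these prefixes but were not annotated as protein coding and were left out. Atp5o appears as 2 overlapping entries and counts as 2 members.

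All 18 libraries came from retinas of rd1 mice on the FVB strain at postnatal day 30. The rd1 line carries an inherited photoreceptor degeneration, in which rods die early and cones later. Every animal received a subretinal injection of AAV8-GFP, an adeno-associated virus that carries green fluorescent protein, either alone (GFP) or together with AAV8-TGFB1, which carries the cytokine TGFB1 (TGFB1). After papain dissociation, antibody staining and cell sorting gave a microglia fraction, with 7 GFP and 7 TGFB1 libraries, and a nonmicroglia fraction, with 2 GFP and 2 TGFB1 libraries. The control groups therefore also carry virus and GFP. Neither the promoter in the vectors nor whether a library holds 1 animal or a pool is given in the sources used here, and p-values here speak only of how far these libraries vary, some of which may be technical.

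Oxidative phosphorylation is the last stage of aerobic energy production. Complexes I and II take electrons from NADH and succinate, complex III passes them to cytochrome c, and complex IV passes them to oxygen. Complexes I, III and IV pump protons across the inner mitochondrial membrane, and complex V, the ATP synthase, uses the gradient to make ATP. Most subunits are encoded in the nucleus, and a small core is encoded in the mitochondrial DNA and transcribed there. Several complex IV subunits have isoforms that differ between tissues. In the retina, photoreceptors are the classical large consumers of this ATP, and microglia are the resident macrophages.

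The libraries held between 1582451 and 3064027 counts each. Levels below are CPM, counts scaled to a common library size, with library sizes scaled by the trimmed mean of M values (TMM). The microglia libraries carried the labelled identity: 9 microglial markers summed to between 39000 and 48650 CPM in microglia and to between 55.12 and 67.44 CPM in nonmicroglia, where Trem2 was at 0 in all 4 libraries. The nonmicroglia fraction was dominated by Mueller glia markers, at 18540 to 21390 CPM for the 9-gene list. In the same fraction, 10 bipolar cell markers summed to 1409 to 2453 CPM, 7 cone markers to 755.1 to 1819 CPM, and 8 rod markers to only 165.6 to 379.2 CPM, with the rod gene Nrl at 0 in all 4 libraries. In the microglia libraries the Mueller glia list, which includes Apoe, stood at 4617 to 7083 CPM and the cone list at 242.4 to 394.2 CPM. The bipolar list stood there at 12.09 to 215.6 CPM and the rod list at 1.975 to 19.16 CPM. A list of 7 ganglion cell markers summed to 34.89 to 74.79 CPM in GFP microglia and only 13.69 to 23.59 CPM in GFP nonmicroglia. Of its 4 tested genes, 3 were called higher in GFP microglia (edgeR, adjusted p below 0.05). Of 7 cone markers 1 was called higher and 5 lower, and of 4 pigment epithelium markers 1 higher and 3 lower.

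Of the 13 mitochondrially encoded genes, 7 were well counted and 6 were nearly empty in every library. Over all 18 libraries, mt-Nd1, a complex I subunit, had 214544 counts, mt-Nd5 had 86518, and mt-Co1, the catalytic subunit of complex IV, had 80605. In contrast mt-Co2 had 0 counts, mt-Nd3 had 1, mt-Co3 and mt-Atp8 had 3 each, mt-Atp6 had 10 and mt-Nd4l had 14. In 5 of these 6 genes nearly every stretch of 50 bases in the transcript also occurs in the transcript of a nuclear pseudogene on chromosome 1. The shared part was 100% of the 50-base words for mt-Co2, 99.9% for mt-Co3, 99.5% for mt-Atp6, 98.8% for mt-Nd4l and 98.0% for mt-Nd3. It was 0% for mt-Nd1 and mt-Cytb, 51.1% for mt-Co1 and 62.2% for mt-Nd4. The near-empty mt-Atp8 shared 0% with any annotated transcript. How the counting treated reads that match more than 1 place is not given in the sources used here, and its part in the low counts was not tested.

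The opening bases of 2 such genes and of their nuclear copies are shown as a description, in GRCm38 coordinates. Capitals mark the only base that differs, which is in the mt-Nd3 pair. The mt-Co2 stretch lies at chrM:7013-7072 on the plus strand and its copy Gm28661 at chr1:24615506-24615565 on the minus strand. The mt-Nd3 stretch lies at chrM:9459-9518 on the plus strand and its copy Gm28438 at chr1:24613060-24613119 on the minus strand. The mt-Nd1 stretch, at chrM:3351-3410 on the plus strand, has no copy among the annotated transcripts.
mt-Co2: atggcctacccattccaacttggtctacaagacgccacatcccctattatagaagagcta
Gm28661: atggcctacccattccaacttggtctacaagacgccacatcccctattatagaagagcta
mt-Nd3: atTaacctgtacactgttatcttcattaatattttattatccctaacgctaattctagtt
Gm28438: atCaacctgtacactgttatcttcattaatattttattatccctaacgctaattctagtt
mt-Nd1: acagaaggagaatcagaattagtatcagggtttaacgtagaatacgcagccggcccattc
The pair mt-Co2 and Gm28661 did not differ within the 60 bases, and both rows of the table were nearly empty, with 0 and 6 counts. The pair mt-Nd3 and Gm28438 differed at 1 base, and the rows held 1369 counts for Gm28438 and 1 for mt-Nd3. Gm28437, the copy of mt-Co3, held 361 counts against 3 for mt-Co3. Whether shared or differing bases bear on these counts was not tested. Levels of these 6 mitochondrial genes are therefore not interpreted here, and "mitochondrially encoded" below rests on the other 7.

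**Figure D1:**
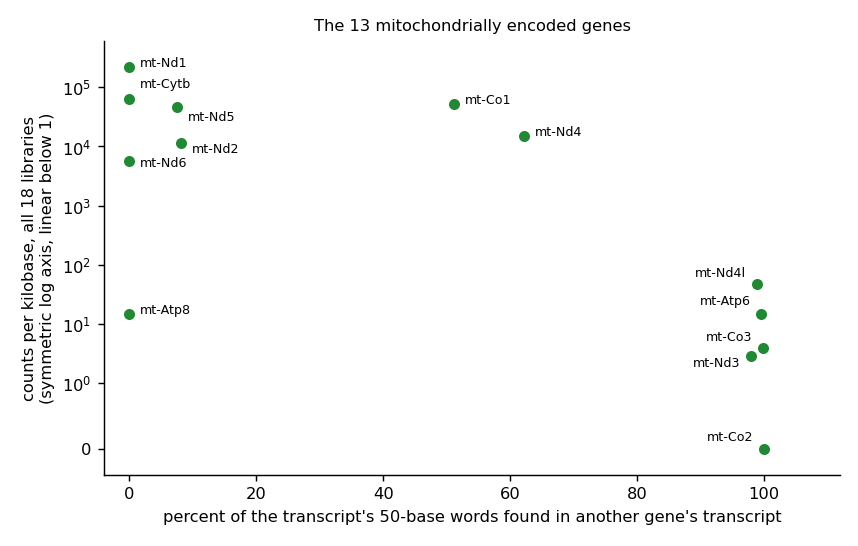
Each point is 1 of the 13 mitochondrially encoded genes: the percent of the 50-base words of its transcript that occur in another gene's transcript (horizontal) against its counts per kilobase summed over 18 libraries (vertical, symmetric log axis). The 5 genes that share 98.0% or more sit at the bottom right with mt-Co2 at 0, and mt-Atp8 is low with 0% shared.

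In level per length, 4 mitochondrially encoded genes, mt-Nd1, mt-Cytb, mt-Co1 and mt-Nd5, led the whole set in all 4 groups. In GFP microglia mt-Nd1 stood at 6495 ± 793.5 CPM per kilobase (SD, n = 7), mt-Cytb, the complex III core subunit, at 1690 ± 287.0, mt-Co1 at 1491 ± 204.3 and mt-Nd5 at 1341 ± 140.5. These 4 kept the same order in each of the 4 groups. In GFP microglia the SDs of mt-Cytb and mt-Co1 overlapped, as did those of mt-Co1 and mt-Nd5. Some 50-base words of mt-Co1 and mt-Nd4 are shared with other genes, as given above, so their levels are less certain than that of mt-Nd1. Next came mt-Nd4, which ranked 5 in all 4 groups, above every nuclear gene. The gene mt-Nd2 ranked 6 in both microglia groups, above every nuclear gene, and 7 in both nonmicroglia groups, where Cox8a ranked 6. Only mt-Nd6 stood among the nuclear genes in every group: it ranked 11 in both microglia groups and 20 and 19 in GFP and TGFB1 nonmicroglia. The highest nuclear genes in GFP microglia were 2 complex IV subunits, Cox8a at 211.0 ± 21.2 CPM per kilobase and Cox4i1 at 206.6 ± 19.9, which did not differ beyond their spread. Atp5a1, the alpha subunit of the ATP synthase catalytic head, stood at 161.0 CPM per kilobase in GFP microglia and 146.2 in GFP nonmicroglia. Cycs, cytochrome c, was low at 3.23 ± 0.668 CPM per kilobase in GFP microglia, and 26.1% of its 50-base words are shared with other genes, so reads could be split among them.

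Summed over a library, the mitochondrially encoded genes took a larger share of the counts in microglia and the nuclear genes a smaller one. The mitochondrially encoded genes took 1.28% ± 0.183 of the counts in GFP microglia (SD, n = 7) and 1.23% ± 0.154 in TGFB1 microglia (SD, n = 7), against 0.762% ± 0.101 and 0.817% ± 0.0710 in GFP and TGFB1 nonmicroglia (SD, n = 2 each). The nuclear genes took 0.605% ± 0.0271 and 0.591% ± 0.0188 in GFP and TGFB1 microglia, and 0.821% ± 0.00777 and 0.851% ± 0.00309 in nonmicroglia. The ratio of mitochondrial to nuclear counts, which does not depend on any scaling of the libraries, ran from 1.80 to 2.93 in GFP microglia and from 1.77 to 2.62 in TGFB1 microglia. In nonmicroglia it ran from 0.847 to 1.01 with GFP and from 0.899 to 1.02 with TGFB1, so the fractions did not overlap while the treatments did. These are shares of plain counts. On TMM-scaled levels the nuclear sum was 6561 ± 422.2 CPM in GFP microglia (SD, n = 7) and 6288 ± 28.8 CPM in GFP nonmicroglia (SD, n = 2), which is not lower. These sums are descriptions with no test. In bulk samples such as these, fewer cells of a type and less RNA per cell cannot be told apart.

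**Figure D2:**
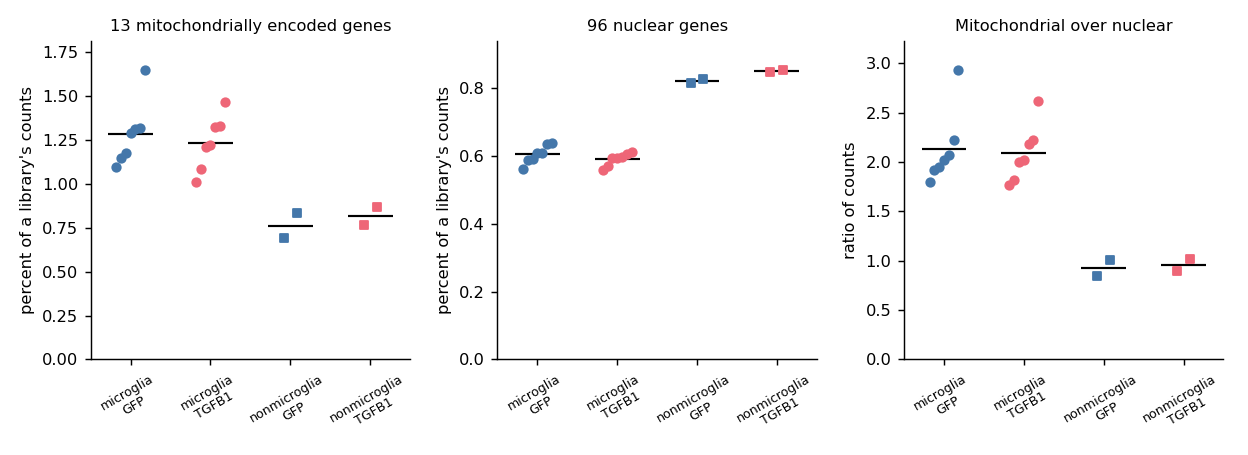
Percent of each library's counts in the 13 mitochondrially encoded genes (left) and the 96 nuclear genes (middle), and the ratio of the former to the latter (right), by group; each point is 1 library (7 per microglia group, 2 per nonmicroglia group) and the bar is the mean. The microglia libraries are higher on the left, lower in the middle, and all at 1.77 or above on the right.

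Between the fractions of GFP-treated retinas, microglia were higher in all 7 tested mitochondrial genes while most nuclear members did not pass the test. Of 99 members that passed the filter on low counts, 24 were called higher in microglia and 16 lower, with 59 not passing (edgeR quasi-likelihood test, adjusted p below 0.05 over 15321 genes). Over all genes tested, 64.2% were called, 29.9% higher and 34.2% lower. Of the 16 lower members, Cox4i2, Cox6b2, Cox8b and Ndufa4l2 entered the test only through the nonmicroglia libraries, where they are high, so their values are given below as descriptions and 12 others remain. The members' median log2 fold change was 0.09, beside -0.06 over all genes. The split between higher and lower depended on the scaling. It was 17 and 28 with relative log expression (RLE) factors, beside 4173 and 5689 of all 15321 genes, whose median was -0.17. With library sizes taken over genes other than mitochondrial and rRNA genes it was 27 and 13, beside 4862 and 5031 of all genes. With plain library totals it was 7 and 56, beside 3130 and 7522 of all genes, whose median was -0.56. Without the first GFP nonmicroglia library, 10 members were called lower. In both treatments and under all 4 scalings, 5 members were called higher and 11 lower. Of the 11, 4 are the isoforms that entered through nonmicroglia, leaving 7. The same count over all genes was not taken, so keeping a call is not read as a trait of these members. The other calls named below depend on the scaling or the treatment. When each library was left out in turn, 18 of the 40 calls between the GFP fractions were lost in at least 1 fit, all 18 in a fit without a GFP nonmicroglia library.

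**Figure D3:**
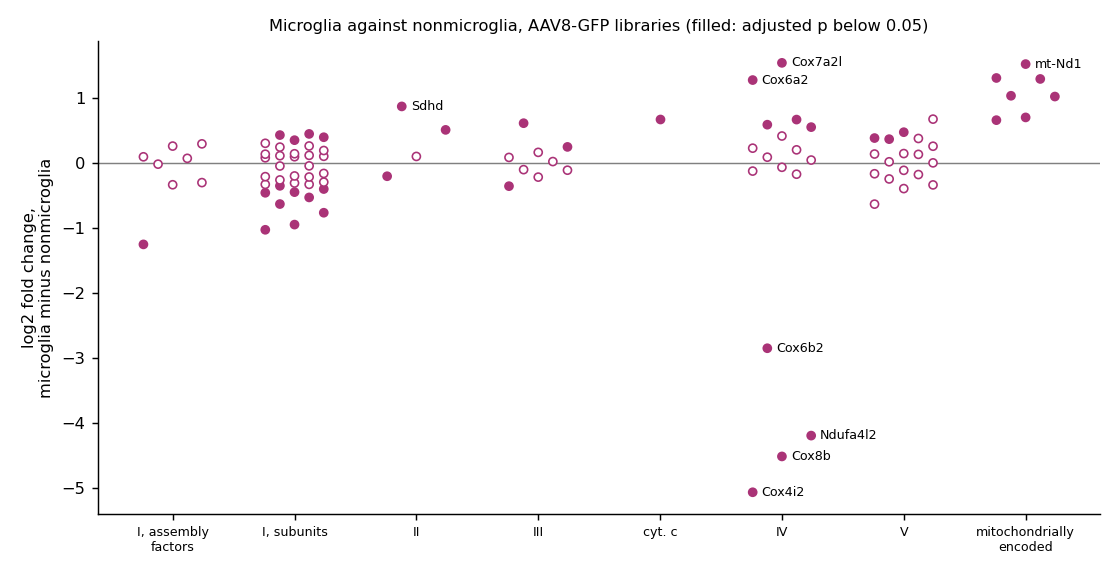
Log2 fold change of each tested member between GFP microglia (7 libraries) and GFP nonmicroglia (2 libraries), by complex; filled points have an adjusted p below 0.05. The 7 mitochondrially encoded genes lie above 0 and the 4 lowest points, all in complex IV, are the isoforms that entered the test only through nonmicroglia.

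The same comparison could be made in the TGFB1 libraries, which are other libraries of the same fit. There 22 members were called higher in microglia and 27 lower, beside 30.8% and 34.4% of all genes (65.2% in either direction); without the first TGFB1 nonmicroglia library 15 were called lower. Of the 24 genes called higher in the GFP libraries, 18 were also called higher in the TGFB1 libraries, where they make up 18 of 22. Of the 16 called lower, 13 were also called lower, where they make up 13 of 27. Both counts include the 4 isoforms. The same overlap over all genes was not counted, so it is not read as a trait of the members. Of the 49 calls between the TGFB1 fractions, 24 were lost in at least 1 fit that left out a library.

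Among the mitochondrially encoded genes, 3 were called higher under every scaling in both treatments: mt-Nd1, mt-Nd5 and mt-Co1. The lowest, median and highest levels of mt-Nd1 were 5264, 6310 and 7527 CPM in GFP microglia, and the 2 GFP nonmicroglia libraries stood at 1977 and 2342 CPM. Every microglia library lay above every nonmicroglia library. The log2 fold change of mt-Nd1 was 1.52 (SE 0.14, edgeR adjusted p = 1.43e-09) in the GFP libraries and 1.40 (SE 0.14, adjusted p = 5.26e-09) in the TGFB1 libraries. For mt-Co1 the GFP microglia values were 1942, 2311 and 2839 CPM against 861.7 and 995.2 CPM in GFP nonmicroglia, a log2 fold change of 1.31 (SE 0.15, edgeR adjusted p = 1.31e-07). The complex I subunit mt-Nd5 differed by 1.30 (SE 0.12, edgeR adjusted p = 9.43e-10). The other 4 were called higher in the GFP libraries with smaller differences: mt-Nd6 at 1.04, mt-Nd4 at 1.03, mt-Nd2 at 0.70 and mt-Cytb at 0.66 on the log2 scale. Without GFP nonmicroglia replicate 2 the calls of mt-Nd2 (edgeR adjusted p = 0.0674) and mt-Cytb (0.0685) were lost. In the TGFB1 libraries mt-Nd2 did not pass (log2 fold change 0.38, edgeR adjusted p = 0.0726). Both mitochondrial ribosomal RNAs were also called higher in GFP microglia, mt-Rnr2 by 1.40 (SE 0.29) and mt-Rnr1 by 0.93 (SE 0.18) on the log2 scale. In the TGFB1 libraries mt-Rnr2 was called higher by 0.99 (SE 0.28, edgeR adjusted p = 0.00549) and mt-Rnr1 did not pass.

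In complex I, the NADH dehydrogenase, 4 of 35 tested nuclear subunits were called higher in GFP microglia and 9 lower, beside 29.9% and 34.2% of all genes, so the lower count is no result about complex I. Of the lower ones, 6 carried through every scaling and both treatments. Ndufv1 and Ndufv2 belong to the module that receives electrons from NADH. Ndufv1 stood at 77.8, 83.95 and 94.2 CPM (lowest, median, highest) in GFP microglia and at 124.9 and 136.9 CPM in GFP nonmicroglia, with no overlap. Its log2 fold change was -0.63 (SE 0.10, edgeR adjusted p = 6.15e-06), and that of Ndufv2 was -0.45 (SE 0.13, adjusted p = 0.00357). The accessory subunit Ndufb2 stood at 14.6, 19.4 and 25.3 CPM in GFP microglia and at 38.2 and 41.7 CPM in nonmicroglia, a log2 fold change of -1.03 (SE 0.20, edgeR adjusted p = 1.02e-04). The accessory subunits Ndufc1 and Ndufa5 differed by -0.95 and -0.77, and Ndufs7, a subunit that holds an iron-sulfur cluster, by -0.40 with overlapping libraries and a call lost without GFP nonmicroglia replicate 1 (adjusted p = 0.244). Among 8 assembly factors, Ndufaf5 was called lower in the GFP libraries (log2 fold change -1.25 with SE 0.39, edgeR adjusted p = 0.00653) but not in the TGFB1 libraries (-0.48, adjusted p = 0.312), and the difference between treatments was not called (adjusted p = 0.9999). Without GFP nonmicroglia replicate 2 the call of Ndufaf5 was lost (adjusted p = 0.0599). Ndufaf3 did not pass in the GFP libraries (-0.33, SE 0.20, edgeR adjusted p = 0.149).

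Complexes II and III each held members called in both directions. In complex II, which links the tricarboxylic acid (TCA) cycle to the chain, the iron-sulfur subunit Sdhb and the membrane anchor Sdhd were higher in GFP microglia, by 0.51 (SE 0.12) and 0.87 (SE 0.18) on the log2 scale. The flavoprotein subunit Sdha was lower by 0.20 on the log2 scale (log2 fold change -0.20 with SE 0.08, edgeR adjusted p = 0.0377). In complex III, the hinge protein gene Uqcrh was higher (0.61, SE 0.18) and the core subunit Uqcrc1 was higher (0.25, SE 0.09). Uqcrq was lower (-0.36, SE 0.12), with 45.0 to 57.2 CPM in GFP microglia and 64.4 and 66.1 CPM in nonmicroglia. Of these 6 genes, Uqcrq was the one called under all 4 scalings in both treatments. Leaving out 1 GFP nonmicroglia library ended the calls of Sdha, Uqcrh, Uqcrc1 and Uqcrq, with adjusted p values up to 0.347, 0.0764, 0.0852 and 0.146. Cycs was called higher in GFP microglia (0.68, SE 0.29, edgeR adjusted p = 0.0448) and did not pass in the TGFB1 libraries (0.30, adjusted p = 0.348). The call of Cycs was lost in 6 of 18 fits that left out 1 library (adjusted p up to 0.163).

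The largest differences of the set lay in 4 isoforms of complex IV, cytochrome c oxidase. These entered the test only through the nonmicroglia libraries, where they are high, so their values are descriptions. Cox4i2 replaces Cox4i1 in some tissues and is known for its induction at low oxygen. It had 0, 1.19 and 4.68 CPM (lowest, median, highest) in GFP microglia against 53.4 and 55.9 CPM in GFP nonmicroglia. In TGFB1 microglia it had 0, 0.388 and 1.40 CPM against 44.2 and 45.3 CPM in TGFB1 nonmicroglia. The fractions were far apart and the microglia treatments overlapped. Over all libraries of a group it had 25 counts in GFP microglia and 352 in GFP nonmicroglia, a nonmicroglia to microglia ratio of 35.1 per scaled library size (95% exact binomial interval 23.4 to 54.95, counting error only). With TGFB1 the counts were 6 and 277, a ratio of 111.6 (interval 50.6 to 306.8). Counted per exon base, Cox4i2 made up 33.1% ± 2.87 (SD, n = 2) of the Cox4i1 and Cox4i2 pair in GFP nonmicroglia and 1.08% ± 1.18 (SD, n = 7) in GFP microglia. All 7 pericyte and endothelial markers were also called lower in GFP microglia; they summed to 1518 to 2183 CPM in GFP nonmicroglia and 26.01 to 136.7 CPM in GFP microglia; their part in the difference was not tested.

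The rarer partners of Cox8a, Ndufa4 and Cox6b1 showed the same direction at low counts. Cox8b is the heart and muscle form of the small subunit, Ndufa4l2 a paralog of Ndufa4 known from the response to low oxygen, and Cox6b2 a form known from testis. Cox8b had 2 counts over all 7 GFP microglia libraries and 25 over the 2 GFP nonmicroglia libraries, a nonmicroglia to microglia ratio of 31.1 (interval 7.77 to 271.3). Ndufa4l2 had 2 and 21 counts, a ratio of 26.2 (interval 6.39 to 230.1). Cox6b2 had 19 and 57 counts, a ratio of 7.47 (interval 4.38 to 13.3). The 2 TGFB1 nonmicroglia libraries differed widely for Cox8b, at 1.61 and 14.6 CPM. Of the common forms, Cox6b1 did not overlap between the GFP fractions, at 109.7 to 137.4 CPM in microglia and 68.45 and 81.46 CPM in nonmicroglia. Cox8a overlapped, at 113.4 to 149.5 CPM in GFP microglia and 116.8 and 128.9 CPM in nonmicroglia (log2 fold change 0.09 with SE 0.11, edgeR adjusted p = 0.475). Ndufa4 overlapped as well (-0.12, SE 0.10, adjusted p = 0.295), and so did Cox7a2 (-0.06, SE 0.11, adjusted p = 0.639) and Cox7b (0.23, SE 0.13, adjusted p = 0.135). In the TGFB1 libraries Ndufa4 was called lower in microglia (-0.41, SE 0.10, edgeR adjusted p = 0.00100) and Cox7b higher (0.48, SE 0.14, adjusted p = 0.00351), while Cox8a stood at -0.23 (adjusted p = 0.0619) and Cox7a2 at 0.01 (adjusted p = 0.918).

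Cox7a2l and Cox6a2 were the 2 nuclear genes called higher in microglia under every scaling and in both treatments. Cox7a2l, also called SCAF1, is known for joining complexes III and IV into supercomplexes. It stood at 66.6, 109.7 and 126.8 CPM (lowest, median, highest) in GFP microglia and at 35.7 and 35.8 CPM in GFP nonmicroglia, without overlap. Its log2 fold change was 1.54 (SE 0.20, edgeR adjusted p = 2.85e-07) in the GFP libraries and 1.36 (SE 0.20, adjusted p = 1.67e-06) in the TGFB1 libraries. Of its 50-base words, 13.8% are shared, mostly with the pseudogene Gm6969, so its count is less certain than those of unique genes. Cox6a2, the form of subunit VIa known from heart and skeletal muscle, stood at 10.8, 12.4 and 20.2 CPM in GFP microglia and at 4.34 and 6.70 CPM in GFP nonmicroglia. Its log2 fold change was 1.28 (SE 0.28, edgeR adjusted p = 3.81e-04). Of the exon bases of Cox6a2, 10.3% overlap those of Itgad, an integrin gene of macrophages that was itself higher in GFP microglia by 3.30 on the log2 scale (SE 0.47); whether reads of Itgad add to Cox6a2 was not tested. The common forms Cox4i1, Cox6a1 and Cox6b1 were also called higher in both treatments, by 0.55 to 0.67 on the log2 scale in the GFP libraries, but not under every scaling.

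**Figure D4:**
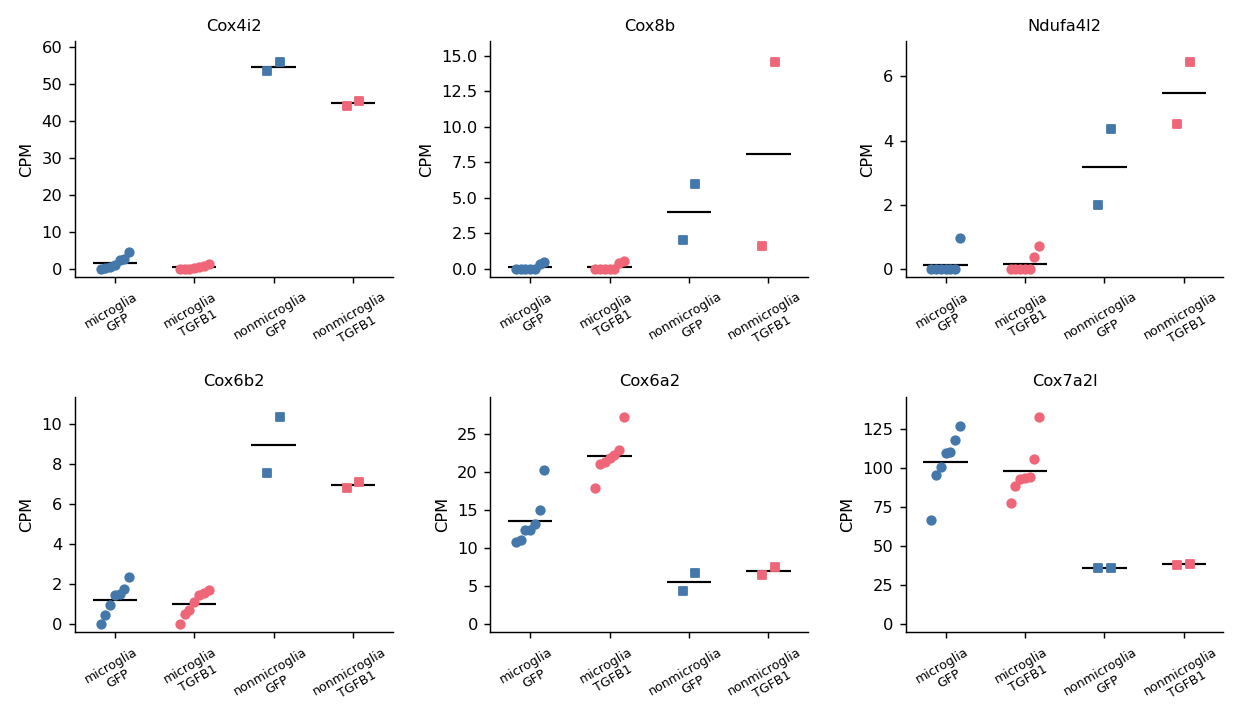
CPM per library of 6 complex IV genes in the 4 groups; each point is 1 library and the bar is the group mean (vertical axes differ between panels). Cox4i2, Cox8b, Ndufa4l2 and Cox6b2 are near 0 in microglia, and Cox6a2 and Cox7a2l are higher in microglia than in any nonmicroglia library.

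Complex V, the ATP synthase, differed little between the GFP fractions. Of 18 tested genes, 3 were called higher in GFP microglia (Atp5c1, Atp5e and Atp5f1) and 0 lower, beside 29.9% and 34.2% of all genes; the calls of Atp5e and Atp5f1 were lost without GFP nonmicroglia replicate 1 (adjusted p = 0.197 and 0.104). Atp5c1, the central stalk subunit, stood at 162.0 to 218.6 CPM in GFP microglia and averaged 151.5 CPM in nonmicroglia (log2 fold change 0.39 with SE 0.11, edgeR adjusted p = 0.00423); it turned to -0.12 with plain library totals. Atp5f1, in the peripheral stalk, likewise went from 0.37 to -0.14. In the TGFB1 libraries 1 gene of complex V was called higher (Atp5g2) and 4 lower (Atp5b, Atp5d, Atp5g3 and Atp5mpl), beside 30.8% and 34.4% of all genes. Atp5mpl differed by -0.87 (edgeR adjusted p = 2.42e-06), and its log2 fold change ran from -0.93 to -0.83 when 1 library was left out. That of Atp5g2 was 1.11 and ran from 0.57 to 2.09. The summed CPM of complex V in GFP microglia was 2079 ± 146.6 (SD, n = 7) and in GFP nonmicroglia 1951 ± 6.23 (SD, n = 2).

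The promoters of the nuclear members were examined for 3 motifs of factors known to control respiratory genes, in the RefSeq windows from 250 bases before to 50 bases after the start (GRCm38.p6; 75 nuclear members matched). GCGCATGC, the core of the NRF1 site, was present on either strand in 17.3% of members and in 3.94% of 17492 protein-coding genes. AAGATGGCG, the core of the YY1 site, was present in 10.7% and 2.14%. CCGGAAGT, an ETS site as bound by GABPA, was present in 6.67% and 5.69%. Any of the 3 was present in 33.3% of members and in 11.02% of all genes. Both strands were searched, and no 2 of these motifs were counted as the same match. A window around the match is shown, with the motif in capitals, for 5 named members whose match lies before the start. Atp5g2 also holds the NRF1 letters before the start and is not shown. Ndufaf5, Uqcrc1, Ndufs7, Ndufc1 and Cox8a also hold a match, but not wholly before the start, and are not shown. The windows lie at chr4:140961197-140961244 (plus strand) for Sdhb, chr5:115349091-115349140 (minus strand) for Cox6a1, chr6:50566602-50566649 (minus strand) for Cycs, chr4:116075071-116075101 (minus strand) for Uqcrh and chr10:80406860-80406907 (minus strand) for Uqcr11.
Sdhb: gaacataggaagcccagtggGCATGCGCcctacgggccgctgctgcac
Cox6a1: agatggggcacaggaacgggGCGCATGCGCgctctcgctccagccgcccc
Cycs: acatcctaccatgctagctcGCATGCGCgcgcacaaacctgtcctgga
Uqcrh: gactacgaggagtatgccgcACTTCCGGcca
Uqcr11: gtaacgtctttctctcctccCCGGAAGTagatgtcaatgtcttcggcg
Sdhb, Cox6a1 and Cycs carry the NRF1 letters, which in Cox6a1 match on both strands, and Uqcrh and Uqcr11 carry the ETS letters. Uqcr11 also holds the NRF1 letters outside the part shown. Of 13 tested members with the NRF1 letters, 5 were called higher in GFP microglia and 1, Ndufaf5, lower, with a median log2 fold change of 0.25. Of 60 tested members without them, 9 were called higher and 11 lower, with a median of 0.01. Of 8 with the YY1 letters, 1 was called higher and 2 lower (median -0.09). Of 5 with the ETS letters, 1 was called higher and 0 lower (median 0.09). Over all genes tested, 29.9% were called higher and 34.2% lower, and these small counts are read no further. A match is a description of the sequence only.

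Other mitochondrial genes were called in both directions between the GFP fractions, and the counts below stand beside 29.9% higher and 34.2% lower over all genes and are read no further. Of 17 genes of the TCA cycle, 3 were higher in microglia and 5 lower, led by Suclg2 (log2 fold change 1.42, SE 0.16), a subunit of succinyl-CoA ligase, and Pdhb (-0.90, SE 0.13), a subunit of pyruvate dehydrogenase. Of 19 tested regulators of mitochondrial biogenesis, 6 were higher and 4 lower. Lrpprc, which stabilises mitochondrial mRNAs, averaged 109.7 ± 13.4 CPM in GFP microglia (SD, n = 7) and 29.3 ± 1.51 CPM in GFP nonmicroglia (SD, n = 2), a log2 fold change of 1.90 (SE 0.15). Gabpb1, a partner of GABPA, was higher by 1.72 (SE 0.24), with 2.70 without GFP nonmicroglia replicate 1 and 1.18 without replicate 2. Of 13 tested carriers, 6 were higher and 3 lower. Slc25a4, the ADP/ATP exchanger of heart and muscle, stood at 155.6 ± 9.43 CPM in GFP microglia and 623.1 ± 22.5 CPM in GFP nonmicroglia (log2 fold change -2.002, SE 0.09). Ucp2, an uncoupling protein abundant in macrophages, stood at 1095 ± 145.3 CPM and 48.9 ± 9.15 CPM (4.48, SE 0.20). Of 37 tested assembly factors of the other complexes, 4 were higher, among them Coa5 (0.99, SE 0.11), and 8 lower, among them Pet100 (-3.66, SE 0.26), whose exons overlap those of Pcp2, a bipolar cell marker.

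In the main edgeR test of each fraction, TGFB1 was not accompanied by a called change of any member. Some other edgeR settings called 1 member, as given below. In microglia, 0 of 95 members that passed the filter were called (edgeR, adjusted p below 0.05), beside 0.319% of the 10970 genes tested (0.237% higher and 0.082% lower). At an unadjusted p below 0.05, 1 member was higher and 4 were lower, beside 720 of the 10970 genes in either direction. DESeq2 and limma voom each called 1 member, Cox6a2. The members' median log2 fold change was -0.06, with 31 of 95 above 0, beside 0.00108 over all genes. All 7 tested mitochondrially encoded genes were below 0, between -0.22 and -0.06, with adjusted p values of 0.872 or more. In nonmicroglia, 0 of 99 members were called by edgeR, beside 0.39% of 13598 genes (0.338% higher and 0.0515% lower). At an unadjusted p below 0.05, 6 members were higher and 1 lower, beside 1037 of the 13598 genes in either direction. DESeq2 and limma voom called 0 members in nonmicroglia. There the median was 0.07 and all 7 mitochondrially encoded genes were above 0, between 0.07 and 0.20. The difference between the effects in the 2 fractions was called for 0 of 99 members by edgeR, DESeq2 and limma voom, beside 0.0131% of 15321 genes. At an unadjusted p below 0.05 this difference was positive for 1 member and negative for 6 in edgeR, beside 709 of 15321 genes in either direction.

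**Figure D5:**
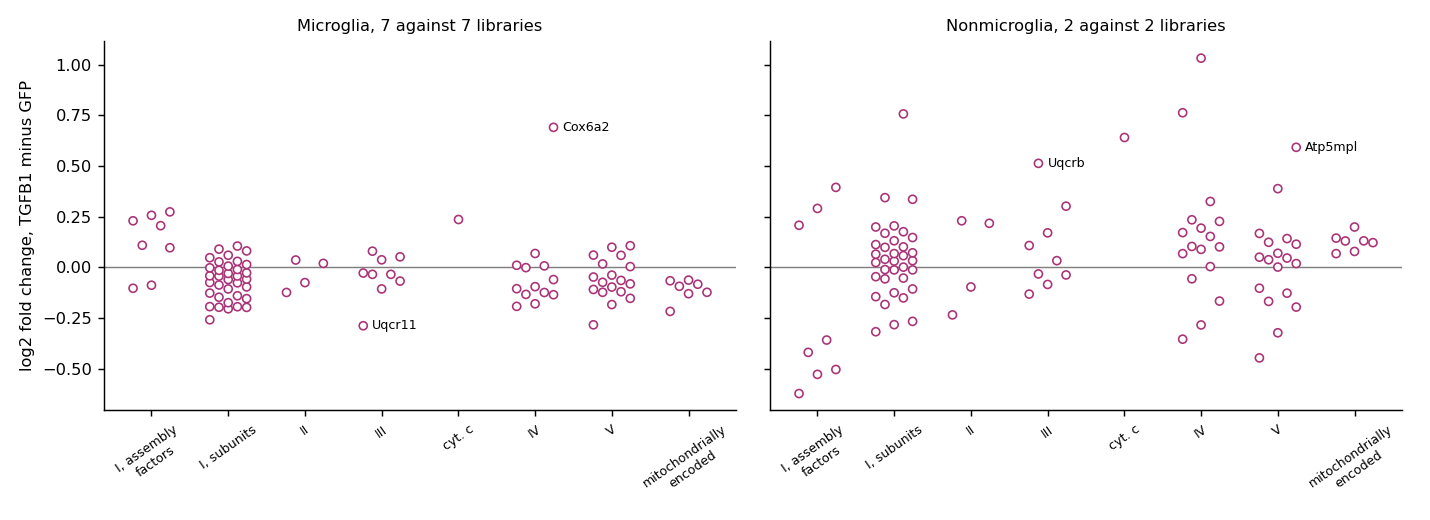
Log2 fold change of each tested member between TGFB1 and GFP libraries by complex, in microglia (left) and nonmicroglia (right); no point reaches an adjusted p below 0.05, so all are open. Cox6a2 stands apart in microglia at 0.69, and the points spread more widely in nonmicroglia, where 2 libraries were compared with 2.

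Cox6a2 had the smallest p in microglia. Its level was 10.8, 12.4 and 20.2 CPM (lowest, median, highest) in GFP microglia and 17.8, 21.8 and 27.1 CPM in TGFB1 microglia, so the groups overlapped through the single GFP library at 20.2, replicate 5. The log2 fold change was 0.69 (SE 0.16, edgeR adjusted p = 0.0635). It passed the threshold in DESeq2 (adjusted p = 0.0231), in limma voom (0.0382), with plain library totals (0.0487) and in edgeR without GFP replicate 5 (0.0190); over all settings that left out 1 library the fold change ran from 0.63 to 0.81. Its adjusted p ran from 0.0190 to 0.880 over all alternatives, with the highest when only replicates 5 to 8 were used. Per exon base, Cox6a2 made up 11.6% ± 2.77 of the Cox6a1 and Cox6a2 pair in GFP microglia (SD, n = 7) and 19.4% ± 2.25 in TGFB1 microglia (SD, n = 7). The neighbouring integrin genes moved by similar amounts without passing: Itgad by 0.63 (SE 0.19, edgeR adjusted p = 0.285) and Itgax by 0.59 (SE 0.13, adjusted p = 0.0548), while Itgam stood at 0.02 (SE 0.06, adjusted p = 0.988). Next in order of p were Uqcr11, a small complex III subunit (-0.29, SE 0.10, edgeR adjusted p = 0.461), and Cox6a1 (-0.19, SE 0.08, adjusted p = 0.603). In nonmicroglia Cox6a2 was at 4.34 and 6.70 CPM with GFP and 6.45 and 7.44 CPM with TGFB1.

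Atp5mpl, a small membrane subunit of the ATP synthase, had the smallest p in nonmicroglia. It stood at 54.8 and 66.7 CPM in the GFP libraries and at 91.2 and 91.5 CPM in the TGFB1 libraries, without overlap. The log2 fold change was 0.59 (SE 0.14, edgeR adjusted p = 0.0659); it passed with no filter on low counts (adjusted p = 0.01295) and without GFP nonmicroglia replicate 1 (log2 fold change 0.74, adjusted p = 0.00904), and stood at 0.757 in the fit of all 18 libraries. In microglia it moved the other way without passing (-0.18, SE 0.10, edgeR adjusted p = 0.799), and the difference of the effects was -0.76 (adjusted p = 0.677). Uqcrb, a complex III subunit, stood at 30.1 and 30.6 CPM with GFP and 41.4 and 44.8 CPM with TGFB1 in nonmicroglia (0.51, SE 0.19, edgeR adjusted p = 0.458). Sdha stood at 327.8 and 343.4 CPM with GFP and 388.6 and 395.5 CPM with TGFB1 (0.23, SE 0.09, adjusted p = 0.458). The makeup of the nonmicroglia libraries differed between the treatments as well. With TGFB1, 7 of 9 tested bipolar markers were called higher, beside 0.338% of all genes. Their list summed to 1409 and 1496 CPM with GFP and 2141 and 2453 CPM with TGFB1. Called lower were 3 of 4 tested erythroid markers, beside 0.0515% of all genes. The cone list summed to 1544 and 1819 CPM with GFP and 755.1 and 1102 CPM with TGFB1. For the rod list these were 289.2 and 379.2 CPM, and 165.6 and 227.2 CPM. Of 7 tested cone and 4 tested rod markers, 0 were called. In the difference of effects, Uqcrb stood at -0.61 (edgeR adjusted p = 0.927) and Ndufc2, a complex I subunit, at -0.59 (adjusted p = 0.9999). The part of these cells in the nonmicroglia values of Atp5mpl, Uqcrb and Sdha was not tested.

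Of the other mitochondrial genes, 1 was called with TGFB1. Pet100, an assembly factor of complex IV, averaged 191.3 ± 14.1 CPM in GFP and 321.5 ± 45.4 CPM in TGFB1 nonmicroglia (SD, n = 2 each; log2 fold change 0.75 with SE 0.10, edgeR adjusted p = 2.54e-04), and fitted with all 18 libraries it kept a fold change of 0.75 but was not called (adjusted p = 1.0). Its exons overlap those of the bipolar cell marker Pcp2 on the other strand, and the counting is not stated to use strand. Reads within the overlap may therefore not be told apart. Whether reads of Pcp2 add to Pet100 was not tested. None of the 17 TCA cycle genes, 17 tested biogenesis regulators, 13 tested carriers or 36 tested assembly factors was called by edgeR in microglia, where the smallest adjusted p values were 0.634, 0.809, 0.493 and 0.700.

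Members that did not pass the filter in the 18-library fit were the 6 near-empty mitochondrial genes and 4 nuclear ones. Ndufs5, a complex I subunit, had 63 counts over 18 libraries, with 21.7% of its 50-base words shared, mostly with the pseudogene BC002163, which held 385 counts. Cox7a1, the heart and muscle form of subunit VIIa, had 25 counts, the testis form Cox7b2 had 2 and Cox8c, also known from testis, had 1. In the microglia fit Cox4i2, Cox6b2, Cox8b and Ndufa4l2 did not pass either, so that fit gives no TGFB1 test for them.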

How the data were processed

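The deposited table holds whole-number counts per gene, not normalized by the authors; per the submitters' processing notes STAR, featureCounts and DESeq2 were used with GRCm38.p6, and the sources used here give no versions, strand setting, read length or annotation release. RNA was polyadenylated and libraries were made by a modified Smart-Seq2 protocol, per the labels' protocols. Of 54532 gene identifiers, 54495 matched GENCODE M21. Levels are CPM on TMM-scaled library sizes of the 18-library fit. Tests used edgeR 4.0.16 (filterByExpr, TMM, quasi-likelihood F test, Benjamini-Hochberg adjustment over all genes tested, threshold 0.05) in R 4.3.3: TGFB1 against GFP within each fraction, and the comparisons of fractions and of effects in 1 fit of all libraries. DESeq2 1.42.0 and limma 3.58.1 were alternatives, and the scripts were tested on simulated data. With 1582451 to 3064027 counts a library, 3 counts correspond to 0.979 to 1.90 CPM; intervals cover counting error only. Shared 50-base words were searched among GENCODE transcripts.

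The members, the lists and the markers were chosen with earlier results of these data known. Genes named are those with the 3 smallest p values in each treatment comparison and in the difference of effects, any called member there, the 10 highest ranked by p in each direction and the 2 of smallest p per complex between the GFP fractions, the complex IV isoforms, the 13 mitochondrial genes and the 2 called genes of smallest p in each list of other mitochondrial genes. Other names that appear were added after their values were seen, to spell out counts and levels. No 2 libraries agreed within sampling noise. Labels do not say whether replicate numbers pair libraries, so no block was used.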

Additional observations from a re-analysis of the deposited data

Results flagged for a closer look

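In 118 groups of 7 libraries examined (59 quantities in GFP and in TGFB1 microglia), 12 had 1 library that stood apart from the other 6. Chance gives about 1 in 20 for a single group. The groups share libraries and are not independent, so the 12 are not compared with that rate. TGFB1 microglia replicate 6 was the highest of its group for 4 mitochondrially encoded genes: mt-Co1 at 2864 CPM (others 1866 to 2264), mt-Nd4 at 745.2 CPM (others 439.0 to 568.6), mt-Nd2 at 402.7 CPM (others 236.5 to 303.1) and mt-Cytb at 2548 CPM (others 1541 to 1908). GFP microglia replicate 2 had a mitochondrial to nuclear ratio of 2.93 (others 1.80 to 2.22), Pet100 at 33.9 CPM (others 9.88 to 15.3) and Coa5 at 166.0 CPM (others 183.6 to 194.4). GFP microglia replicate 7 was low for Atp5c1 at 162.0 CPM (others 196.7 to 218.6) and for mt-Nd6 at 52.3 CPM (others 78.4 to 97.5). In GFP microglia replicate 5, Ndufa4l2 stood at 0.961 CPM, from 2 counts, with the others at 0. TGFB1 microglia replicate 5 had the highest complex I subunit sum, 1874 CPM (others 1642 to 1740), and TGFB1 microglia replicate 3 the lowest Slc25a4, 117.8 CPM (others 146.9 to 168.8).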

How the results depend on the processing

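For TGFB1 in microglia the count of members called higher went from 0 to 1 with DESeq2, limma voom and plain library totals, and ranged from 0 to 1 when 1 library was left out. In nonmicroglia it went from 0 to 1 with no filter on low counts and with the replicate block, where the gene was Atp5mpl (0.60, adjusted p = 0.0189), and ranged from 0 to 1 when 1 library was left out. Between the GFP fractions the replicate block gave 10 higher, plain totals 7 higher and 56 lower, and RLE factors 28 lower; leaving out 1 library gave 10 to 17 lower. Between the TGFB1 fractions the block gave 12 higher, plain totals 5 higher and 61 lower, and leaving out 1 library 15 to 28 lower. Single genes that changed sign between the GFP fractions were Atp5c1 (-0.12), Atp5f1 (-0.14) and Cox7b (-0.27) with plain totals, Cox8a (-0.0270 with RLE factors, -0.0239 with DESeq2, -0.0535 with the replicate block, -0.41 with plain totals) and Cox7a2, which ranged from -0.112 to 0.0161 when 1 library was left out, the latter without GFP nonmicroglia replicate 1. The cause was not tested. The calls over all 15321 genes moved with these settings too. Between the GFP fractions they were 3687 higher and 3442 lower with the replicate block, 3130 and 7522 with plain totals, and 4173 and 5689 with RLE factors. Between the TGFB1 fractions they were 3835 and 3680 with the block, and 3237 and 7359 with plain totals. The log2 ratio of summed levels, GFP microglia over GFP nonmicroglia, was with RLE factors -0.22 for complex I subunits, -0.0167 for complex II, -0.0429 for III, 0.14 for IV, -0.0261 for V and -0.0562 for all nuclear members. With plain totals it was -0.52 for complex I assembly factors, -0.61 for complex I subunits, -0.40 for II, -0.43 for III, -0.24 for IV, -0.41 for V, 0.18 for cytochrome c, 0.75 for the mitochondrially encoded genes and -0.44 for all nuclear members. For TGFB1 over GFP in nonmicroglia plain totals gave 0.0709 for complex V and 0.0520 for all nuclear members, and leaving out 1 library gave 0.0946 to 0.174 for complex II and 0.40 to 0.84 for cytochrome c.

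Whether replicate numbers pair the libraries could not be settled from the correlations. Same-numbered microglia libraries correlated at -0.16 to 0.21 in their deviations from group means, and 2 of 7 correlated best with their own number. In nonmicroglia the value was -0.06, and with 2 libraries per group both numbers must give the same value. Under the replicate block the microglia TGFB1 comparison again called 0 members. Plain library totals were added after the data were examined. Depth limits Cox8b and Ndufa4l2, which had 2 counts each over the 7 GFP microglia libraries.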
